A study of Mus musculus with 10 samples.

Results

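The small heat shock proteins, HSPB8 among them, are chaperones built around an alpha-crystallin domain. *Bag3* encodes a co-chaperone that links HSPB8 to Hsp70 and to autophagy. The genes followed here are *Hspb1*, *Hspb2*, *Hspb3*, *Hspb6*, *Hspb8*, *Cryab* and *Bag3*, chosen by their symbols, and all 7 were found among the 25232 genes of the table. Their RNA was measured by RNA-seq in the spinal cord of female C57BL/6 mice (C57BL/6J background in the methods of the study) at 90 days of age. There were 5 *SOD1* G93A mice, which carry many copies of a human *SOD1* transgene with a mutation of familial amyotrophic lateral sclerosis (ALS), and 5 wild type (WT) littermates without it. The methods of the study give the lumbar part of the cord, and the sample labels give the cord without a part.

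Small heat shock proteins hold unfolded proteins in a soluble state without using ATP, and pass them on to chaperones that refold or degrade them. HSPB8 and BAG3 form a complex that, together with Hsp70 and the ubiquitin ligase CHIP, directs misfolded proteins to autophagy, a route known as chaperone-assisted selective autophagy. In the nervous system, *Cryab* is known from oligodendrocytes and astrocytes. Mutations of the human genes *HSPB1*, *HSPB3* and *HSPB8* are known from inherited motor neuropathies. Heat shock factors bind repeats of the unit GAA and its reverse complement TTC, known as heat shock elements, in the promoters of many chaperone genes.

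The level of a gene is given here as its base mean, the average over all 10 libraries of both genotypes of the read count divided by the size factor of the library. Values of single libraries were not analysed here, so no level is given per mouse or per genotype, and no test between *SOD1* G93A and WT mice was made. A change of any of the 7 genes between the genotypes was therefore not tested. The smallest base means showed the depth behind these values, because a gene with a single read in a single library takes 1 of few possible values. There were 10 such values, held by 716 genes, which is as many as there were libraries. The size factors they correspond to ranged from 0.840 to 1.15, a ratio of 1.37 between the deepest and the shallowest library, and the values do not say which mouse each belongs to. Each base mean below is followed by its counting error, the largest standard error that sampling of reads can give with these size factors. It covers counting alone, and the spread between mice is unknown.

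The sequences before the genes are shown first, because a heat shock element is the feature by which these promoters are usually discussed. The promoter table, from the RefSeq annotation of GRCm38.p6, spans 250 bases before to 50 bases after each annotated start and had entries for 5 of the 7 genes, which were *Hspb1*, *Hspb3*, *Hspb6*, *Hspb8* and *Bag3*. An element of 2 units was taken as GAANNTTC or TTCNNGAA, each of which reads the same on both strands. It was found in all 5 genes, each time in the form GAANNTTC. Of the 27025 genes of the promoter table, 17.0% held either form. GAANNTTC was found in 9.04% of them and TTCNNGAA in 9.60%. Below, each element is shown 5′ to 3′ on the strand of its gene with the bases around it, and capitals mark the 8 bases of the element.
*Hspb1*, chr5:135887793-135887818, plus strand: tcaacaagaGAAGTTTCcagatgggg
*Hspb1*, chr5:135887813-135887838, plus strand: atgggggcaGAACCTTCctggccccg
*Hspb6*, chr7:30553172-30553197, plus strand: gtaattattGAAGTTTCtaaataagg
*Hspb8*, chr5:116422846-116422871, minus strand: aagccaggaGAAGTTTCtaggctcgc
*Bag3*, chr7:128523607-128523632, plus strand: gttctctggatgggaccaGAAGTTTC
*Hspb3*, chr13:113663884-113663909, minus strand: ccccgaatgGAATTTTCaggcagagg

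The same 8 bases, GAAGTTTC, stood in the promoters of 4 of the 5 genes, *Hspb1*, *Hspb6*, *Hspb8* and *Bag3*. This string, searched on both strands, was found in 1.35% of the genes of the promoter table. It was singled out after the sequences had been seen, and the letters alone do not show that a factor binds there. In *Hspb3* the element read GAATTTTC. The elements lay at different distances from the start, 117 and 97 bases upstream in *Hspb1*, 120 bases upstream in *Hspb6* and 224 bases upstream in *Hspb3*. In *Hspb8* and *Bag3* they lay 2 and 42 bases downstream of the start in the promoter table, inside the transcribed part. The start of *Bag3* in the annotation used for exon lengths, 128523616, lies further downstream. The element lies after that start too, at a shorter distance. *Hspb6* has 2 annotated starts, and its element was found before the downstream one and not within the window of the other. An element of 3 units, GAANNTTCNNGAA or TTCNNGAANNTTC on either strand, was found in 0 of the 5 genes and in 0.662% of all genes.

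**Figure D1:**
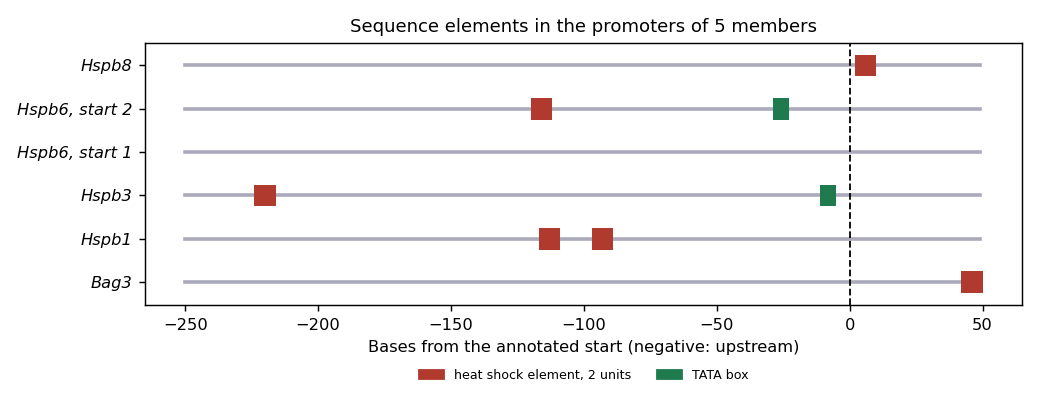
Positions of letter matches to heat shock elements of 2 units (red) and to TATAAA (green) in the promoters of 5 genes. Each start has 1 row. The x axis gives the distance in bases from the start annotated in RefSeq. The elements of *Hspb1* and *Hspb6* lie 97 to 120 bases upstream, that of *Hspb3* lies 224 bases upstream, and those of *Hspb8* and *Bag3* lie 2 and 42 bases downstream.

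The promoter of *Hspb1* is shown with its 250 bases before the start because it alone held 2 elements, and that of the downstream *Hspb6* start because it held both an element and a TATA box, TATAAA, 29 bases before the start.
*Hspb1*, chr5:135887669-135887918, plus strand: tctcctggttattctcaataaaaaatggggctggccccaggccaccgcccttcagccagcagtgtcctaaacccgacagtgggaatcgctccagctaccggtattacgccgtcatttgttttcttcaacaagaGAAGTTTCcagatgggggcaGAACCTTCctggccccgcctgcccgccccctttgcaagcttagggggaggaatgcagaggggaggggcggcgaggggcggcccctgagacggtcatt
*Hspb6*, chr7:30553051-30553300, plus strand: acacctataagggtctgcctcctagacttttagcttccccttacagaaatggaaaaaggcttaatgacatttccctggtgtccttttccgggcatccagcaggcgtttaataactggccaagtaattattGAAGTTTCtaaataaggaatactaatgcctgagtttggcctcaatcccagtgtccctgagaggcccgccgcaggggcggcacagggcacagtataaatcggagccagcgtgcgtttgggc

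TATAAA, searched on both strands, was found in *Hspb6* and in *Hspb3*, where it stood 11 bases before the start, and in 15.7% of all genes of the promoter table. The promoters of the other 3 genes, and that of the upstream *Hspb6* start, did not hold these letters. The share of G and C in the 250 bases before the start was 65.2% in *Bag3*, 64.4% in *Hspb8* and 59.2% in *Hspb1*, and 52.4% in *Hspb3*. It was 53.6% and 49.6% at the starts of *Hspb6*, against a median of 52.4% over all promoters. The 3 genes without TATAAA thus had a higher share than the 2 genes with it. The upstream *Hspb6* start, without TATAAA but at 53.6%, was also below those 3 genes.

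Among the 7 genes, *Cryab*, which encodes alpha-B crystallin of 175 residues, had the highest level. Its base mean was 6562 (counting error 27.9), number 515 of the 25232 genes. Divided by the 1479 bases of its annotated exons, this was 4437 per kb (counting error 18.9), above 99.4% of the 17722 protein-coding genes with a base mean above 0. *Cryab* made up 66.6% of the summed base mean of the 7 genes, and 70.6% of their summed level per kb.

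*Hspb8*, the gene of a partner of BAG3, encodes 196 residues and was second per kb, with a base mean of 1396 (counting error 12.9). Its level per kb was 716 (counting error 6.61), above 92.2% of protein-coding genes. *Cryab* was 6.20 times as high per kb, with a 95% counting interval of 6.08 to 6.32. *Hspb1*, the gene of the chaperone known as HSP25 in mice, encodes 209 residues and came next per kb, at 601 (counting error 8.33), with a base mean of 619 (counting error 8.59). The level per kb of *Hspb8* was 1.19 times that of *Hspb1* (95% counting interval 1.15 to 1.23), or 2.40 times per kb of coding sequence, and whether that gap is larger than the spread between mice cannot be seen from a pooled value.

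*Bag3*, the co-chaperone gene, encodes 577 residues, and its base mean was 959 (counting error 10.7). Per kb this came to 374 (counting error 4.17), above 83.2% of protein-coding genes. The level per kb of *Hspb8* was 1.91 times that of *Bag3* (95% counting interval 1.86 to 1.97), and that of *Cryab* 11.9 times. Per kb of coding sequence these ratios were 4.29 and 22.6. Both genes of the HSPB8 and BAG3 complex were therefore well above the median level of protein-coding genes, 84.3 per kb.

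*Hspb6*, the gene of HSP20, encodes 162 residues and had a base mean of 298 (counting error 5.96). Its level was 130 per kb (counting error 2.59), above 59.6% of protein-coding genes. The place of *Hspb6* in the order depends on the length it is divided by, because its 4 annotated transcripts cover 2299 exon bases, of which 486 are coding. Per kb of exons *Bag3* was 2.89 times as high as *Hspb6* (95% counting interval 2.76 to 3.02), and per kb of coding sequence *Bag3* was 0.903 times *Hspb6*. Its exons also overlap those of 2 genes on the other strand, 122 bases with *Proser3* and 3 bases with *Lin37*, and 77 bases of a microRNA gene, *Gm38670*, on its own strand, which was listed at 0.

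*Hspb2* and *Hspb3*, which encode chaperones known mainly from heart and skeletal muscle, stood at the low end. The base mean of *Hspb2* was 18.6 (counting error 1.49), from between 156 and 214 reads over the 10 libraries together. Per kb it was 22.3 (counting error 1.78), above 30.5% of protein-coding genes. *Hspb3*, a gene with a single exon that encodes 154 residues, was the lowest, with a base mean of 5.34 (counting error 0.797) from between 45 and 62 reads in all. Its level per kb was 6.84 (counting error 1.02), above 21.2% of protein-coding genes. *Hspb2* was 3.26 times as high per kb as *Hspb3*, with a 95% counting interval of 2.34 to 4.55. From *Hspb3* to *Cryab* the levels per kb spanned 649 times (95% counting interval 484 to 869), and per kb of coding sequence 1081 times.

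**Figure D2:**
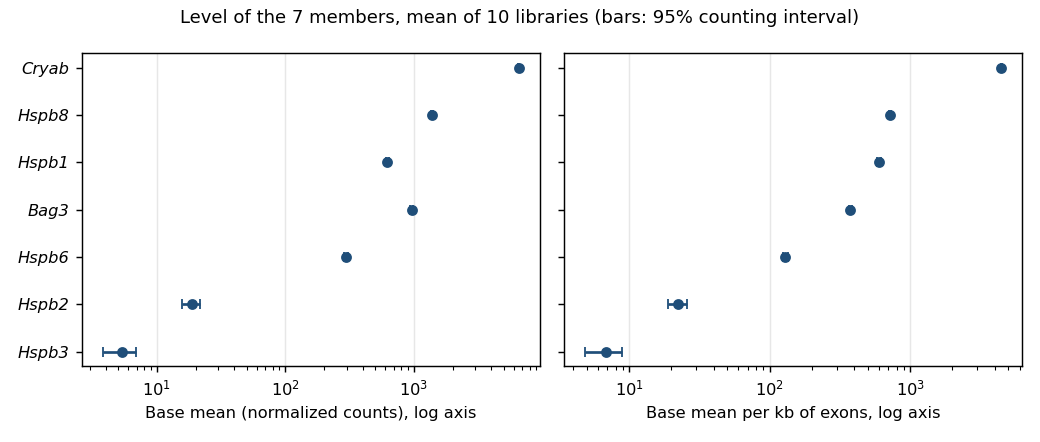
Base mean in normalized counts (left) and base mean per kb of annotated exons (right) of the 7 genes, both on log axes. Points are the means over 10 libraries of both genotypes and bars are 95% counting intervals, which do not include the spread between mice. *Cryab* lies at 4437 per kb, *Hspb8*, *Hspb1* and *Bag3* between 374 and 716, *Hspb6* at 130, and *Hspb2* and *Hspb3* at 22.3 and 6.84.

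*Cryab* and *Hspb2* sit next to each other on chromosome 9 of GRCm38 and are read in opposite directions, *Cryab* from 50751325 to 50756636 on the plus strand and *Hspb2* from 50751078 to 50752354 on the minus strand. *Cryab* was 199 times as high per kb as *Hspb2*, with a 95% counting interval of 170 to 233, and 367 times as high per kb of coding sequence. Of the 6 annotated transcripts of *Cryab*, 2 start inside *Hspb2*, and the nearest start of the others lies 553 bases from the start of *Hspb2*. The first exon of 1 of these 2 transcripts lies within an exon of *Hspb2*, and that of the other within its intron. The exons of both genes share 252 bases, which is 30.2% of the exon bases of *Hspb2* and 17.0% of those of *Cryab*. The libraries were stranded, but the strand setting of the counting is not given in the sources used here. How reads in the shared bases were counted was not tested, so the level of *Hspb2* is less certain than its counting error says.

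**Figure D3:**
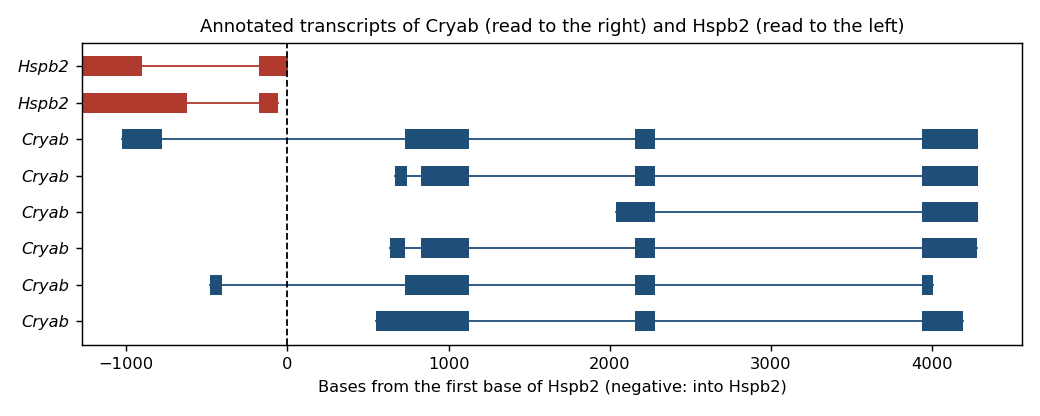
Annotated transcripts of *Cryab* (blue, 6 transcripts) and *Hspb2* (red), with boxes for exons and the distance from the first base of *Hspb2* in bases on the x axis. The dashed line marks that first base, and 2 transcripts of *Cryab* begin to its left, inside *Hspb2*, where the exons share 252 bases.

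*Hspb1* (135887919 to 135889563) and *Hspb8* (116408491 to 116422864) are both on chromosome 5, and their nearest protein-coding genes, *Srrm3* and *Srrm4*, lie 13147 and 16411 bases away. *Bag3* (chromosome 7, 128523616 to 128546981) and *Hspb3* (chromosome 13, 113662896 to 113663676) have no protein-coding neighbour within 61899 and 44332 bases. *Hspb6* lies on chromosome 7 from 30552178 to 30555443, next to *Lin37* and *Proser3*. The exons of *Hspb1*, *Hspb3*, *Hspb8* and *Bag3* overlap no exon of another gene in the annotation.

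Among all genes with a base mean above 0, whose median was 247, the base means of *Cryab*, *Hspb8*, *Bag3*, *Hspb1* and *Hspb6* were above the median and those of *Hspb2* and *Hspb3* below it. Among genes whose base mean reached 10, *Hspb6* fell below the median, at a percentile of 37.9 against 52.8. Per kb of exons, the 5 genes above the first median were also above that of protein-coding genes. The base means of all genes summed to 22158933 normalized counts, the average over the libraries of their scaled reads counted in genes. Together the 7 genes held 0.0445% of that sum, and *Cryab* alone held 0.0296%.

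**Figure D4:**
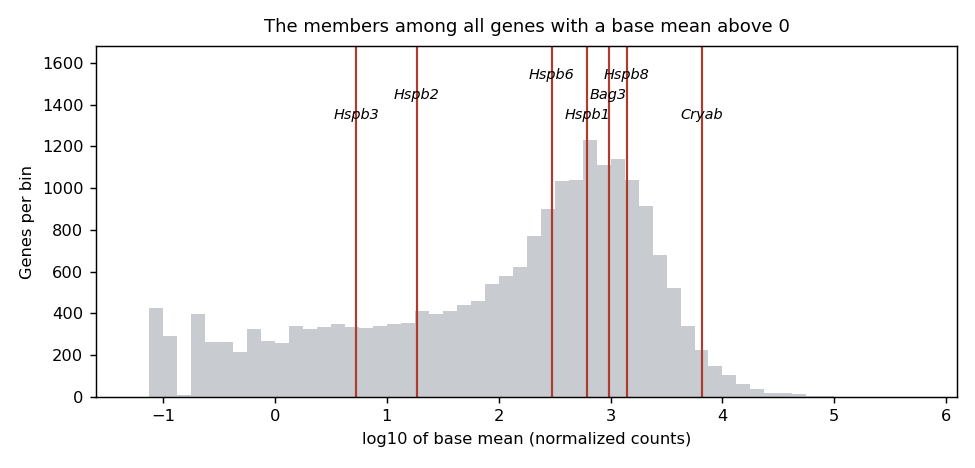
Number of genes by log10 of the base mean, for the 20973 genes with a base mean above 0, with red lines at the 7 members. *Hspb3* and *Hspb2* lie below the median of 247 and the other 5 lie above it, with *Cryab* at 6562.

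The 4 further small heat shock protein genes were all lower per kb of exons than *Hspb2*. *Hspb7*, a chaperone gene of heart and muscle, was the highest of them at 9.10 per kb, with a base mean of 25.2, which lies between *Hspb3* and *Hspb2* per kb. Per kb of coding sequence *Hspb7* was above *Hspb2*, at 49.7 against 34.1. *Cryaa*, the lens crystallin gene, was at 2.52 per kb with a base mean of 5.23, and *Hspb9*, known from testis, was at 3.23 per kb with a base mean of 2.34. *Odf1*, a gene of the sperm tail, was listed at 0, which allows a base mean of up to 0.357 if 3 reads in the shallowest library are taken as the limit. Of these 10 small heat shock protein genes, *Cryab* was the highest per kb and *Odf1* the lowest.

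The other 5 Bag genes, which encode co-chaperones with the same Hsp70-binding domain or a related one, ranged from 79.0 per kb (*Bag2*) to 1486 per kb (*Bag1*), with a median of 317 per kb. *Bag3*, at 374 per kb, lay within that range and below *Bag1* and *Bag6*. *Bag4* was the second lowest of them, at 136 per kb. This order depends on the length, since per kb of coding sequence *Bag3*, at 554, was also below *Bag4* and *Bag5*, at 699 and 594. The heat shock factors *Hsf1*, *Hsf2* and *Hsf4*, the transcription factors that bind heat shock elements, ranged from 42.8 per kb (*Hsf2*) to 387 per kb (*Hsf4*), with *Hsf1* at 129 per kb. Per kb of coding sequence *Hsf1*, at 573, was above *Hsf4*, at 459.

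The partners of BAG3 in autophagy differed widely. *Hspa8*, the gene of the constitutive Hsp70 protein HSC70, was the highest of the 8 at 9232 per kb, above *Cryab*. It was followed by *Sqstm1*, the gene of the autophagy receptor p62, at 3010 per kb. *Synpo2*, which encodes a BAG3-binding protein of muscle, was the lowest at 18.5 per kb. The inducible *Hspa1b* followed at 25.4 per kb with a base mean of 71.1. Both of these orders depend on the length. Per kb of coding sequence *Map1lc3b*, an autophagosome gene, was above *Sqstm1*, at 12074 against 7619, and *Synpo2* was above *Hspa1b*, at 64.3 against 36.9. With the longest transcript *Synpo2* was at 26.3 per kb and *Hspa1b* at 25.4. *Hspa1b* and its copy *Hspa1a* are nearly identical. Only uniquely mapped reads were counted, which leaves out reads that fit both copies, so the levels of both may be too low. How far this affects the place of *Hspa1b* was not tested.

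**Figure D5:**
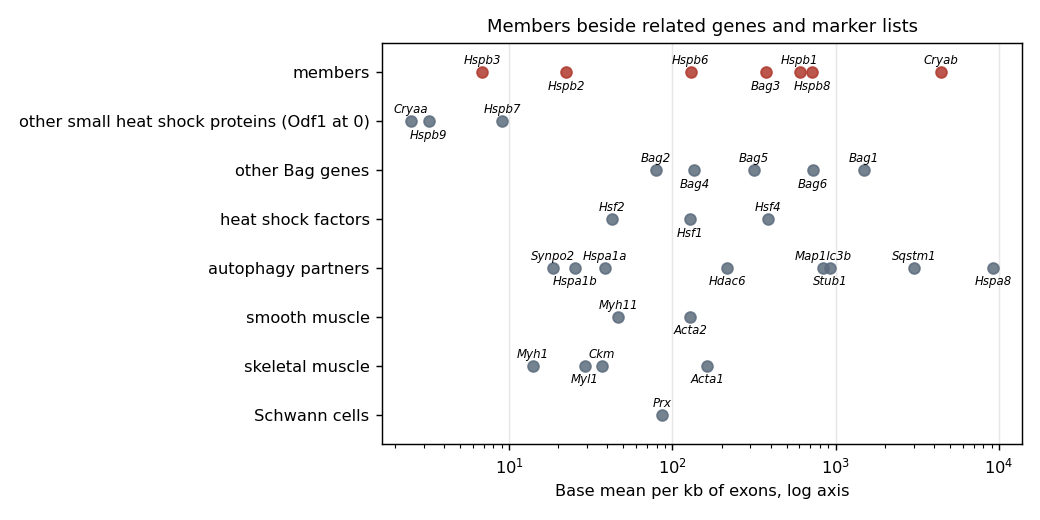
Base mean per kb of annotated exons, on a log axis, for the members (red) and for related genes and marker lists (grey), 1 point per gene, averaged over 10 libraries. The members span nearly the whole range, from *Hspb3* at 6.84 to *Cryab* at 4437, and *Hspa8* at 9232 lies above them all.

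The markers of the tissue were present. The 4 motor neuron markers had base means from 37.3 (*Mnx1*) to 2316 (*Slc5a7*), the 3 oligodendrocyte markers ranged from 5348 to 319615, the 3 astrocyte markers from 1944 to 56289 and the 3 microglia markers from 480 to 1278. *Hoxc10* and *Hoxd10*, which mark lumbar levels, had base means of 489 and 152, and the forebrain gene *Emx1* of 0.993. Markers of cells outside the cord were also found, with base means of 60.1 to 251 for 4 of 4 skeletal muscle genes and 484 for the Schwann cell gene *Prx*. The 2 smooth muscle markers had base means of 283 and 355, and the 2 endothelial markers of 631 and 710. The part of muscle or nerve root RNA in the levels of *Hspb2*, *Hspb3*, *Hspb6* and *Hspb7* was not tested. In a bulk sample, more cells of a type and more RNA per cell cannot be told apart. *Sod1* could not serve as a check of the genotypes, since its value too is pooled over them.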

How the data were processed

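Spinal cord RNA of 5 *SOD1* G93A and 5 WT mice was sequenced from stranded mRNA libraries. According to the methods and the labels, the authors filtered reads with Fastp, aligned them to mm10 with HISAT2 2.1.0, counted uniquely mapped reads with featureCounts 2.0.2 and ran DESeq2. The authors deposited 1 table for all samples. The base mean that the authors deposited, a signal that is never negative, is an average over the 10 libraries of read counts scaled by the size factor of each library. The other 5 columns hold the fold change, error, statistic and p-values of the authors' own comparison and were not used, so no test was made. Groups were taken from the genotype labels.

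Size factors were read from the steps of the lowest base means. The counting error is the square root of the base mean times the value of 1 read in the shallowest library, and intervals are 95%. Lengths are the union of exons in GENCODE M21 on GRCm38, the build mm10 denotes (96.5% of symbols matched). They stand in place of the RefSeq exons planned. The methods of the study do not name the annotation behind the counts, so the exons counted may differ from these. The size factors and the counting intervals were tested on simulated data. The interval test drew reads with counting error alone and covered only genes above a minimum base mean, which *Hspb2* and *Hspb3* did not reach. The genes named are all 7 members, genes nearest to them and, of each list of relatives or partners at most the highest 2 and the lowest 2 per kb, beside cell type markers, of which 2 are not reported here. Chosen after their values were seen, *Map1lc3b* and *Bag5* are named where another length turned an order. *Hspa1a* is named besides, as the copy of *Hspa1b*, and *Gm38670* and *Proser3* for their overlap with *Hspb6*. Members and lists were chosen with earlier results of these data known. The alternatives were 2 other lengths, 2 other sets of background genes, levels per kb for the share of *Cryab* and an element of 3 units. Python 3.11.15, numpy 2.4.6, pandas 2.3.3 and matplotlib 3.10.9 were used.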

Additional observations from a re-analysis of the deposited data

How the results depend on the processing

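The order of the 7 members by level per kb was the same for exons and for the longest transcript. With coding length, *Bag3* and *Hspb6* changed places, with a ratio of *Bag3* to *Hspb6* of 0.903 (2.49 with the longest transcript). The ratio of *Cryab* to *Hspb8* was 5.27 with coding length and 7.64 with the longest transcript. The ratio of *Hspb8* to *Hspb1* was 2.40 with coding length. *Cryab* held 70.6% of the members' summed level per kb. With an element of 3 units, 0 of 5 genes held one. Over the genes whose base mean reached 10, the percentile of the base mean of *Hspb2* was 4.78, against 27.7 among genes above 0, and that of *Hspb6* was 37.9, against 52.8. *Hspb3* lies below that minimum and has no such value. The comparison of protein sequences was not run. Leaving out single libraries was not possible with pooled values. No paired analysis was possible because the table holds no values of single libraries. Depth limits *Hspb3* and *Hspb2* most, where the counting error is 0.797 of 5.34 and 1.49 of 18.6.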
